A study of Mus musculus with 12 samples.

Results

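The interferon-stimulated genes form a module of 47 listed mouse genes, and its members were taken as the rows of the deposited count table whose gene symbol was on the list. The table held 46 of the 47 among its 14533 genes, and Oasl1 was not among them. Of the 46 genes, 37 were grouped as targets of type I interferon and 9 as interferon-inducible GTPases, the Gbp and Irgm families with Igtp, Iigp1 and Ifi47. Epidermis was scraped from frozen, non-lesional dorsal skin of 12 untreated C57BL/6 mice of both sexes, 8 to 13 weeks old by the labels, and each mouse gave 1 library. All 12 mice were Pparg (flox/flox). The 6 WT mice were Cre-/- siblings without recombinase. The 6 Pparg-/-epi mice were Cre+/- with a Cytokeratin14 promoter, which is active in basal keratinocytes, so recombination was directed to keratinocytes. By this design other cells of the scrape should keep the intact gene, which was not checked here. The scrape reached the superficial dermis, and the RNA integrity number (RIN) ran from 5.7 to 8.6.

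Interferons are secreted proteins that switch cells into an antiviral state. Type I interferons signal through a complex that includes STAT2 and IRF9 and binds the interferon-stimulated response element (ISRE), while interferon gamma, the type II interferon, acts mainly through the gamma-activated site (GAS). Their targets include sensors of foreign nucleic acid, enzymes that degrade RNA, GTPases that attack intracellular pathogens, and transcription factors that amplify the response, and keratinocytes as well as skin leukocytes can make these proteins. Most targets respond to both kinds of interferon to some degree, so that the split between type I targets and GTPases is one of emphasis.

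The total counts ran from 10120840 to 18851255 per library, and 3 counts, taken as the floor, were worth 0.156 to 0.320 CPM (counts scaled to a common library size, with TMM factors). Counts of Pparg itself overlapped, from 5 to 269 in WT and from 16 to 107 in Pparg-/-epi mice (log2 fold change -0.10, adjusted p = 0.949), and since excision leaves a shortened transcript these counts do not check the genotypes. All 7 keratinocyte markers were detected, and their summed level ran from 19500 to 46900 CPM in WT and from 31220 to 53270 CPM in Pparg-/-epi mice. Summed fibroblast markers ran from 1014 to 34530 CPM in WT and from 5324 to 11170 CPM in Pparg-/-epi mice. Col1a1 was highest in WT 1 (13798 CPM) and Dcn in WT 2 (1974 CPM). Whether the libraries differed in how much dermis they held was not tested. In such bulk samples fewer cells of a type and less RNA per cell cannot be told apart.

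The promoters of the module were read from RefSeq (GRCm38.p6), 250 bases before to 50 bases after each start, and 35 of the 46 genes were matched. Not matched were Dhx58, Zbp1, Oas1b, Oas2, Usp18, Parp9, Parp14, Mx1, Mx2, Rtp4 and Iigp1. The ISRE core was searched as GAAANNGAAA and, on the other strand, TTTCNNTTTC, and the GAS as TTCNNNGAA, which reads the same on both strands. At least 1 ISRE core was found in 19 of the 35 genes (54.3%) and in 3.81% of the 10993 genes of the count table that have a promoter there, or 3.44% of all 32851 promoters. A GAS was found in 13 of the 35 (37.1%) and in 8.56% of the genes of the count table, or 8.3% of all promoters. Of the 8 GTPases matched, 7 held the ISRE core and 4 the GAS. Of the type I targets, 12 of 27 held the ISRE core and 9 the GAS, and of the 6 genes matched among the 8 called higher, 3 held the ISRE core and 1 the GAS. A match describes these letters only, overlapping matches were counted apart, and in Bst2 a GAS overlapped an ISRE core. The windows below show, with the match in capitals and 10 bases on each side, the elements that lie before the start of 3 genes called higher in Pparg-/-epi mice (Isg15, Oas3 and Oas1a), of the GTPase gene with the highest level per length (Gbp2), of Igtp and Irf1 for the GAS, and of Ifit3 and Ifit3b, whose windows are the same. The marked matches all lie upstream of the annotated start, the windows are written in the direction of the gene, and each marks 1 match where several overlap.
Isg15, ISRE core, chr4:156200871-156200900, minus strand: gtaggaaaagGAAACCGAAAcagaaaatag
Oas3, ISRE core, chr5:120777715-120777744, minus strand: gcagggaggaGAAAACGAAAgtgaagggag
Oas1a, ISRE core, chr5:120907520-120907549, minus strand: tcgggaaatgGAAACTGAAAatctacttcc
Gbp2, ISRE core, chr3:142620594-142620623, plus strand: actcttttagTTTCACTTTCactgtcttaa
Igtp, GAS, chr11:58199501-58199529, plus strand: aactagccatTTCTAGGAActgaaactga
Irf1, GAS, chr11:53769914-53769942, plus strand: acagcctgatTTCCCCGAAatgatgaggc
Ifit3, ISRE core, chr19:34583363-34583392, plus strand: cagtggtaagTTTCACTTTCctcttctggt
Ifit3b, ISRE core, chr19:34607759-34607788, plus strand: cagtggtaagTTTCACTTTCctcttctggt

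Among the 46 genes, 8 were higher in Pparg-/-epi mice and 1 was lower, where a gene was called if its log2 fold change reached 0.6 in size and its adjusted p, from edgeR's quasi-likelihood test over all genes, lay under 0.05. The 8 were Oas1a, Oas3, Oasl2, Isg15, Trim25, Mx1, Rtp4 and Irf7, all type I targets, and the gene that was lower was Isg20. Over all 14533 genes 5.19% were called higher and 5.08% lower. The log2 fold change was above 0 in 44 of the 46 genes, with a median of 0.66, beside -0.01 over all genes. In 4 genes, Oas3, Trim25, Mx1 and Irf7, the 6 Pparg-/-epi mice were all above the 6 WT mice, which was so in 3.95% of all genes, and in none of the 46 were they all below, again beside 3.95% of all genes. Because the 46 genes vary together between mice, neither count stands for 46 independent results.

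**Figure D1:**
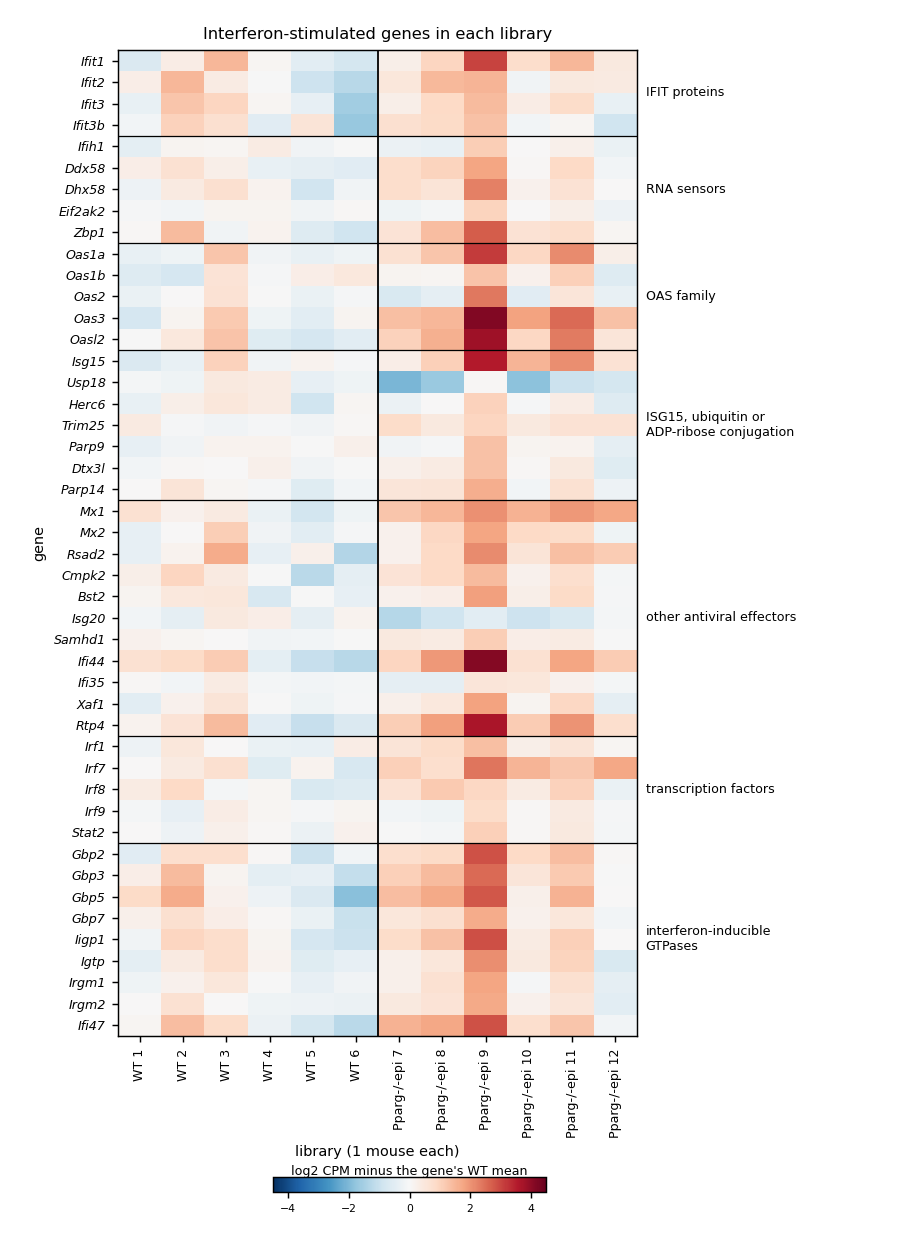
The map shows the 46 interferon-stimulated genes in rows, by role, and the 12 libraries in columns, with color for log2 CPM minus the gene's mean over the 6 WT libraries. The column of Pparg-/-epi 9 is the reddest in nearly every row. Of the other Pparg-/-epi libraries, Usp18 and Isg20 are below 0 in all, and Oas2 in all but Pparg-/-epi 11. Ifih1, Eif2ak2, Herc6, Parp9, Ifi35, Irf9 and Stat2 are below 0 in most of them, by less than Usp18.

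The OAS family held 3 of the 8 calls. These enzymes sense double-stranded RNA and make 2-5A, which activates RNase L. Oas3 (chr5:120753098-120777659, minus strand, mm10) lay at 0.959 CPM at the lowest, 1.67 at the median and 4.05 at the highest in WT mice, and at 4.47, 5.75 and 32.7 CPM in Pparg-/-epi mice. This gave a log2 fold change of 2.5 ± 0.56 (SE, n = 6 in each group, adjusted p = 0.0105). Every Pparg-/-epi mouse was above the highest WT mouse. Oasl2 (chr5:114896934-114912245, plus strand) encodes a relative of these enzymes with ubiquitin-like domains. It had 4.19, 6.13 and 17.7 CPM in WT mice and 10.5, 18.5 and 102 CPM in Pparg-/-epi mice (log2 fold change 2.04 ± 0.58, adjusted p = 0.0318). Here 3 Pparg-/-epi mice lay below WT 3, the highest WT mouse. Oas1a (chr5:120896257-120907525, minus strand) had 1.82, 2.02 and 5.75 CPM in WT mice and 2.83, 5.14 and 21.9 CPM in Pparg-/-epi mice (log2 fold change 1.69 ± 0.51, adjusted p = 0.0420). Its groups overlapped through WT 3 alone, since the other 5 WT mice lay below all Pparg-/-epi mice. Of the 75-base stretches of Oas1a, 47.6% also occur in transcripts of Oas1g, so its counts are those of reads that the authors' filter on multi-mapped reads left. Oas1b (log2 fold change 0.43) and Oas2 (0.64) were not called, and Oas2 was at 55.8 CPM in Pparg-/-epi 9 and between 6.50 and 16.8 CPM in the other 11 mice.

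Isg15, a ubiquitin-like protein that is conjugated to other proteins, and Trim25, a ubiquitin ligase that acts on the RNA sensor RIG-I, were higher in Pparg-/-epi mice. Isg15 (chr4:156199424-156200818, minus strand) had 1.60, 2.37 and 5.43 CPM in WT mice (lowest, median and highest) and 3.23, 6.63 and 32.1 CPM in Pparg-/-epi mice (log2 fold change 1.95 ± 0.55, adjusted p = 0.0303). The groups overlapped through WT 3. Trim25 (chr11:88999403-89020293, plus strand), which had the highest level per length of this group (13.9 RPKM on average), had 52.9, 56.7 and 77.7 CPM in WT mice and 80.1, 93.4 and 117 CPM in Pparg-/-epi mice, a small but even difference of 0.67 ± 0.12 on the log2 scale (adjusted p = 0.00324). No mouse of either group crossed into the range of the other.

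Usp18, the protease that removes Isg15 from proteins and dampens signaling at the type I receptor, went against Isg15. The gene (chr6:121245906-121270917, plus strand) had 12.5, 14.7 and 22.3 CPM in WT mice and 3.80, 6.63 and 16.8 CPM in Pparg-/-epi mice. At -1.06 ± 0.34 its log2 fold change just missed the threshold (adjusted p = 0.0508). All Pparg-/-epi mice except Pparg-/-epi 9 lay below all WT mice, and without that library Usp18 was called lower, by -1.45 ± 0.26 (adjusted p = 0.00608). Of the other genes that act on ubiquitin or ADP-ribose, Herc6 (log2 fold change 0.11), Parp9 (0.27), Dtx3l (0.42) and Parp14 (0.61) were not called. Parp9 and Dtx3l overlap by 334 exon bases on opposite strands, and whether the counting used strand is not given in the sources used here, so reads from that stretch cannot be told apart.

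Among other antiviral effectors 2 of 11 genes were higher, 1 was lower and 8 were not called. Mx1 (chr16:97447035-97462906, minus strand), of the dynamin-like GTPase family, had 1.58, 2.93 and 4.79 CPM in WT mice and 7.13, 9.35 and 12.5 CPM in Pparg-/-epi mice (log2 fold change 1.66 ± 0.26, adjusted p = 0.00134). These are transcript levels, and whether a working Mx1 protein was made in these mice was not tested. The groups were apart, and Pparg-/-epi 9 was only 1.44 times the median of the other Pparg-/-epi mice. Rtp4 (chr16:23609919-23614222, plus strand), which takes part in the trafficking of receptors, had 1.11, 2.21 and 6.82 CPM in WT mice and 4.21, 7.39 and 32.9 CPM in Pparg-/-epi mice (log2 fold change 1.95 ± 0.58, adjusted p = 0.0377). Isg20 (chr7:78913424-78920396, plus strand), an exonuclease that degrades single-stranded RNA, fell from 9.45, 12.8 and 17.05 CPM in WT mice to 5.04, 7.21 and 11.9 CPM in Pparg-/-epi mice (log2 fold change -0.72 ± 0.22, adjusted p = 0.0446). Both Rtp4 and Isg20 overlapped between the groups, Rtp4 through WT 3 and Isg20 through Pparg-/-epi 12.

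Samhd1, which hydrolyzes deoxynucleotides, had the highest level per length of the antiviral effectors (21.7 RPKM). It had 65.6, 72.5 and 83.3 CPM in WT mice and 72.1, 94.5 and 156 CPM in Pparg-/-epi mice. At 0.46 ± 0.15 (adjusted p = 0.0603) its log2 fold change was short of both thresholds. Ifi44 had the widest spread, from 0.252 to 1.92 CPM in WT mice and from 1.33 to 15.9 CPM in Pparg-/-epi mice, and its log2 fold change of 2.22 ± 0.71 was not called (adjusted p = 0.0513). The log2 fold changes of Mx2 (0.84), Rsad2 (0.91), Cmpk2 (0.59), Bst2 (0.69), Ifi35 (0.11) and Xaf1 (0.68) were not called either.

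Irf7, the factor that drives the later wave of type I interferon genes, was the transcription factor that was higher. The gene (chr7:141263183-141266424, minus strand) had 4.66, 8.24 and 12.9 CPM in WT mice and 13.3, 20.6 and 42.03 CPM in Pparg-/-epi mice (log2 fold change 1.49 ± 0.31, adjusted p = 0.00698), with no overlap of the groups. Irf9 and Stat2, which act in the type I complex, were not called. Irf9, at 25.6 RPKM the highest of the group per length, had 48.9, 63.9 and 80.6 CPM in WT mice and 55.1, 63.5 and 113 CPM in Pparg-/-epi mice (log2 fold change 0.18 ± 0.18, adjusted p = 0.544), and Stat2 differed by 0.29 (adjusted p = 0.368). Irf1 and Irf8, which interferon gamma also induces, had log2 fold changes of 0.64 (adjusted p = 0.0650) and 0.62 (adjusted p = 0.199).

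None of the 4 IFIT genes or the 5 RNA sensors was called in edgeR's quasi-likelihood test, with an unadjusted p under 0.05 in 1 and 3 of them, none by the likelihood ratio test, and Ddx58 alone by DESeq2. Ifit1, which binds viral RNA that lacks the cap of the host, had 2.33, 3.68 and 12.0 CPM in WT mice and 4.99, 7.77 and 35.1 CPM in Pparg-/-epi mice (log2 fold change 1.32 ± 0.55, adjusted p = 0.125). Ifit2 (0.56), Ifit3 (0.42) and Ifit3b (0.31) differed less, and 41.1% of the 75-base stretches of Ifit3 occur in Ifit3b, so the split of reads between this pair is uncertain. Eif2ak2, the kinase PKR and the sensor with the highest level per length (9.89 RPKM), had 36.0, 39.7 and 43.8 CPM in WT mice and 34.01, 38.8 and 79.5 CPM in Pparg-/-epi mice (log2 fold change 0.20 ± 0.19, adjusted p = 0.544). The log2 fold changes of Ifih1 (0.16), Ddx58 (0.81), Dhx58 (0.92) and Zbp1 (1.14), which sense RNA or Z-form nucleic acid, were not called.

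**Figure D2:**
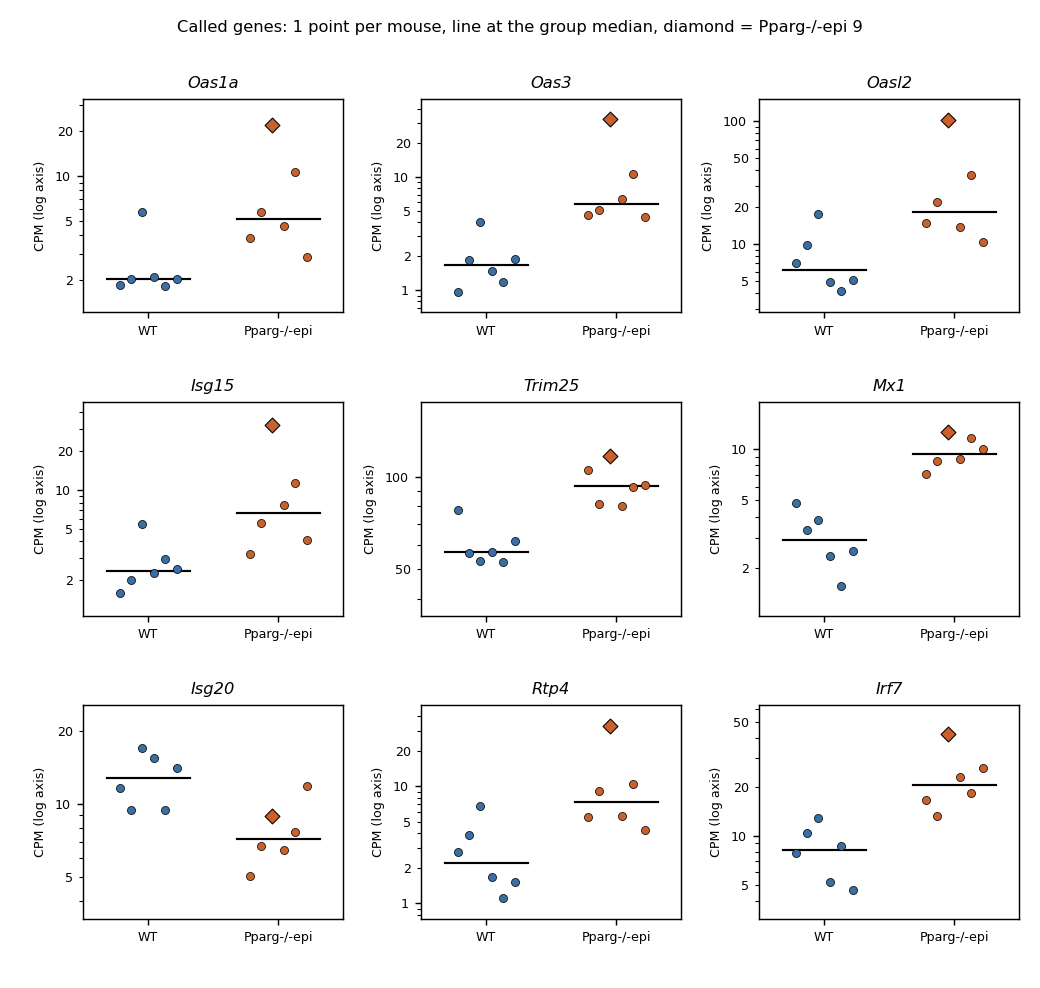
Each panel shows CPM on a log axis for 1 called gene, with 1 point per mouse (6 WT in blue, 6 Pparg-/-epi in orange), a line at the group median and a diamond for Pparg-/-epi 9. Oas3, Trim25, Mx1 and Irf7 do not overlap between the groups, and in the 8 genes that were higher the diamond is the highest point.

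The question of type I against type II targets was met by the 9 GTPases, none of which was called in edgeR's quasi-likelihood test, while 4 of them had an unadjusted p under 0.05. All 9 had a log2 fold change above 0, from 0.60 for Gbp7 to 1.38 for Ifi47, and their median of 1.14 was larger than the 0.64 of the 37 type I targets, 8 of which were higher and 1 lower. The difference between these 2 sets was not tested. The guanylate-binding proteins and the Irg GTPases load onto the vacuoles of intracellular pathogens. Gbp2 (chr3:142620663-142638008, plus strand), the highest of them per length (20.5 RPKM), had 13.5, 25.6 and 45.003 CPM in WT mice and 27.4, 48.6 and 192 CPM in Pparg-/-epi mice (log2 fold change 1.31 ± 0.45, adjusted p = 0.0703). The groups overlapped through WT 2 and WT 3, which lay close to the median of the Pparg-/-epi mice. The log2 fold changes of Gbp3 (1.14), Gbp5 (1.22), Iigp1 (1.27), Igtp (0.78), Irgm1 (0.65) and Irgm2 (0.63) had adjusted p between 0.105 and 0.221. Some reads are open to sharing, since 7.8% of the 75-base stretches of Igtp occur in Irgm2. DESeq2 called 3 of the GTPases higher, Gbp2, Iigp1 and Ifi47, and the likelihood ratio test of edgeR called Gbp2 alone.

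The spread within WT mice was wider for the mean of the 9 GTPases than for the mean of all 37 type I targets. The mean over genes of log2 CPM relative to the WT mean had an SD of 0.63 in WT mice (n = 6) and 0.85 in Pparg-/-epi mice (n = 6) for the GTPases, and of 0.36 and 0.62 for the type I targets. The sets differ in size, and single type I roles ranged widely. In WT mice the SD was 0.86 for the 4 IFIT genes, 0.51 for the OAS family and 0.20 for the transcription factors. WT 2 was the highest WT mouse in 7 of the 9 GTPases and WT 3 in 2, while WT 3 was the highest in 21 of the 37 type I targets and WT 2 in 9. WT 2 also had the highest summed level of macrophage markers (586.5 CPM, with 394 CPM at the highest in Pparg-/-epi mice) and of leukocyte markers (308.8 CPM), and the lowest of keratinocyte markers. The part of these cells in the result was not tested. Without WT 2, 4 GTPases were called higher (Gbp2, Gbp3, Gbp5 and Ifi47), as were 12 type I targets, and over all genes 8.97% were called higher in that fit.

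**Figure D3:**
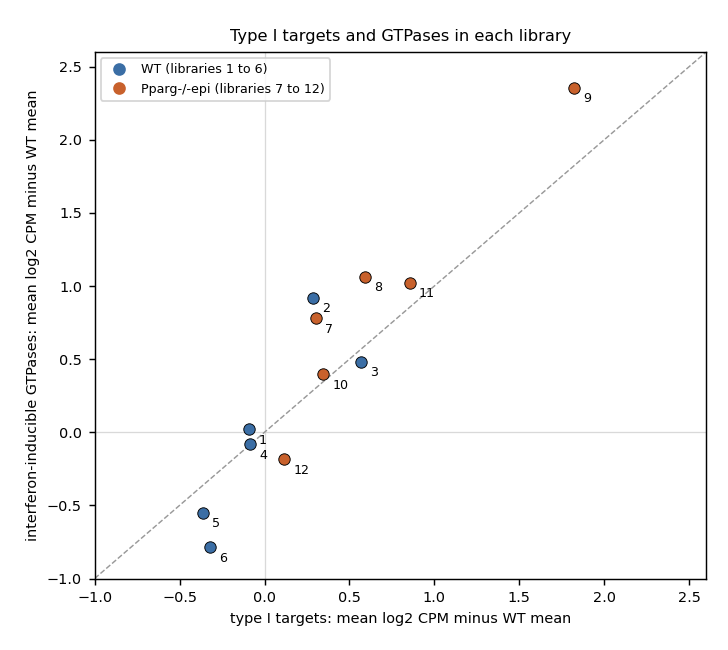
Each point is 1 library, numbered, at its mean log2 CPM relative to the WT mean over the 37 type I targets (horizontal axis) and the 9 GTPases (vertical axis), with WT in blue, Pparg-/-epi in orange and the dashed line at equal values. Pparg-/-epi 9 lies at 1.82 and 2.36, apart from the other 11 libraries. WT 2 and WT 3 lie among Pparg-/-epi libraries, and Pparg-/-epi 12 lies at 0.12 and -0.19.

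How far a single library carried the rise was read from the rank of each library. Pparg-/-epi 9 had the highest CPM of all 12 mice in 43 of the 46 genes (93.5%), beside 6.41% of all genes. The exceptions were Usp18, Isg20 and Irf8. Relative to the WT mean it lay at 1.93 on the log2 scale over the 46 genes, while the other 5 Pparg-/-epi mice lay at 0.06 to 0.89 and the WT mice at -0.41 to 0.55. Its CPM was 2.46 times the median of the other Pparg-/-epi mice at the median gene, from 1.22 times in Irf8 to 8.43 times in Ifi44, and over 2 times in all 9 GTPases and in 27 of the 37 type I targets. Over all genes that ratio had a median of 1.00. Of the 50 genes of the table by which this library led all others the most on the log2 scale, 24 were on the list of 47.

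Without Pparg-/-epi 9, 3 of the 46 genes were called higher, Oas3, Mx1 and Irf7, and Usp18 was called lower, where 3.52% of all genes were called higher and 4.16% lower. The median log2 fold change fell from 0.66 to 0.36, and 38 of the 46 remained above 0. The mean difference over the 46 genes was 0.72 with the library and 0.48 without it, so that 66.4% of it was left. The share left was 65.9% for the type I targets and 68.0% for the GTPases. By role it ran from 24.4% for the genes of Isg15 and of ubiquitin or ADP-ribose conjugation to 77.3% for the transcription factors. The 24.4% is a share of a small mean difference, 0.30 with the library and 0.07 without it, which includes the fall of Usp18. The next lowest share was 55.6%, for the RNA sensors. Oas3 had a log2 fold change of 1.71 ± 0.38 without the library (adjusted p = 0.0152), Mx1 of 1.56 ± 0.27 (adjusted p = 0.00497) and Irf7 of 1.21 ± 0.27 (adjusted p = 0.0150). Trim25 kept its adjusted p (0.0109) but its 0.58 ± 0.12 was under the fold threshold. Ifih1, Eif2ak2, Oas2, Herc6, Parp9 and Ifi35 turned to values below 0, between -0.26 and -0.01.

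**Figure D4:**
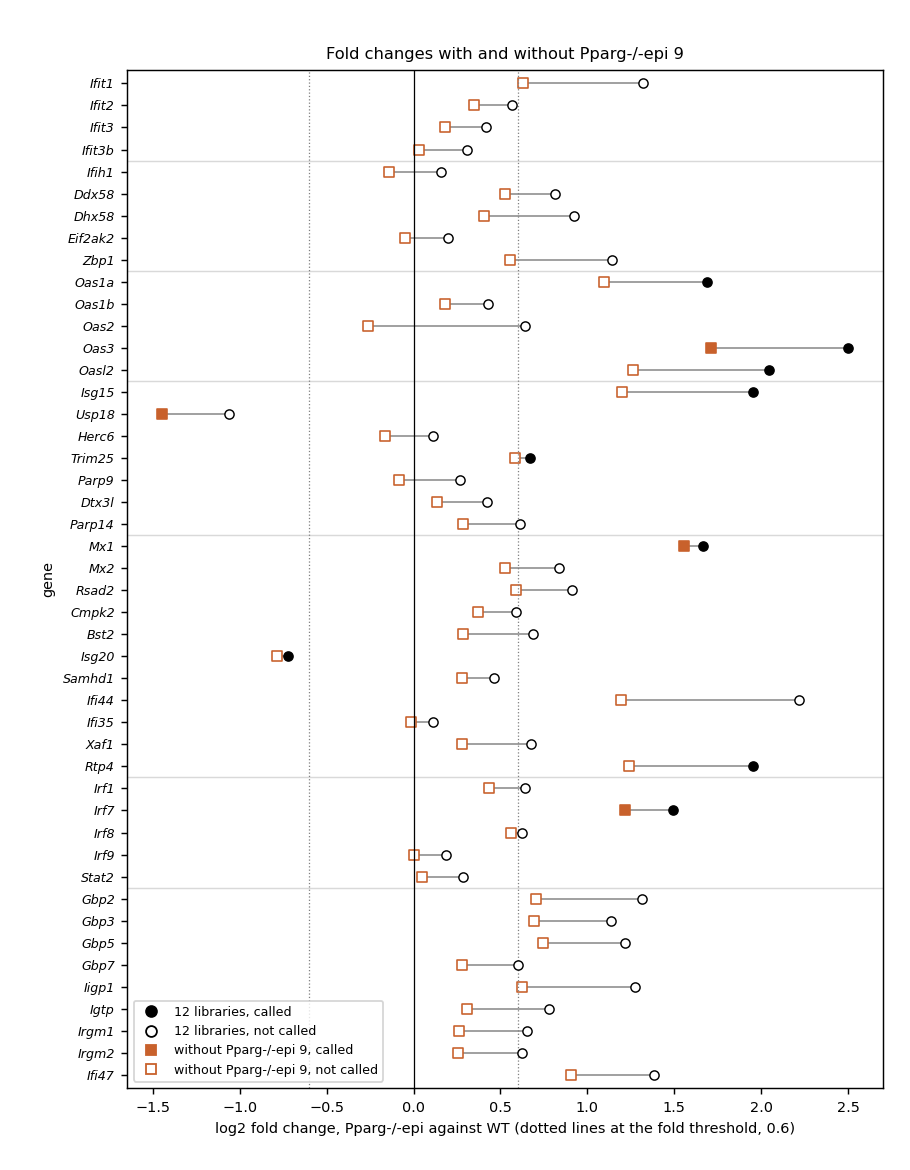
For each of the 46 genes the circle marks the log2 fold change of Pparg-/-epi against WT over all 12 libraries and the square the value without Pparg-/-epi 9, filled where the gene was called. Removing the library moves every gene to the left, and Oas3, Mx1 and Irf7 stay filled on the right while Usp18 becomes filled on the left.

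The remaining Pparg-/-epi mice differed from each other. Pparg-/-epi 11 lay above all 6 WT mice in 25 of the 46 genes (54.3%, beside 14.2% of all genes) and Pparg-/-epi 8 in 18 (39.1%, beside 19.4%). Pparg-/-epi 7 did so in 10 (21.7%, beside 19.0%) and Pparg-/-epi 10 in 8 (17.4%, beside 15.6%), both near the share of all genes, and Pparg-/-epi 12 in 4 (8.7%, beside 19.0%). Pparg-/-epi 9 was a female mouse of 13 weeks with an RIN of 7.7 and 16085747 counts, each within the range of the other mice. In all 10 lists of cell type markers its summed level was below the highest Pparg-/-epi mouse, with 207 CPM for leukocytes beside 178 to 222 CPM in that group, and 330 CPM for macrophages and monocytes beside 220 to 394 CPM. Single markers went the other way, since of the 58 markers measured 7 (12.1%) were highest in this library, namely C1qb, Ms4a7 and Fcgr1 of macrophages, Gzmb, Csf3r, Egfl7 and Krt14. Their part in the result was not tested.

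The rise was larger in the 7 female mice than in the 5 male mice by these means, but that difference was not shown by a test. Over the 46 genes Pparg-/-epi minus WT was 1.00 on the log2 scale in female mice (3 WT, 4 Pparg-/-epi), 0.68 without Pparg-/-epi 9, and 0.18 in male mice (3 WT, 2 Pparg-/-epi). The interaction of sex and genotype in edgeR's quasi-likelihood test, added after these means were seen, was above 0 in 45 of the 46 genes, with an adjusted p under 0.05 in 0 of them (lowest 0.895) and an unadjusted p under 0.05 in 3 (6.52%, beside 5.10% of all genes). The names of the mice carry a number whose meaning is not given in the sources used here, and 4 WT mice share a number that no Pparg-/-epi mouse has. With the mice split into lower and higher numbers, a division made for these comparisons, the difference was 0.67 within the lower numbers (2 WT, 4 Pparg-/-epi), or 0.31 without Pparg-/-epi 9, and 0.56 within the higher numbers (4 WT, 2 Pparg-/-epi).

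The 4 calls of Oas1a, Oasl2, Isg15 and Rtp4 depended on which mice and covariates were included. With sex as a covariate all 4 were lost, at adjusted p of 0.0960, 0.0889, 0.0593 and 0.0881, and with the lower and higher mouse numbers as a block at 0.0676, 0.0637, 0.0567 and 0.0803. Their log2 fold changes, in the same order, were 1.54, 1.795, 1.86 and 1.78 with sex, and 1.72, 1.88, 1.99 and 1.73 with the block. Isg20 was lost in both as well (adjusted p = 0.0545 and 0.0725). Each of the 4 was lost when WT 1, WT 4, WT 5, WT 6, Pparg-/-epi 9 or Pparg-/-epi 11 alone was left out (adjusted p at most 0.112 for Oas1a, 0.0780 for Oasl2, 0.0680 for Isg15 and 0.104 for Rtp4 over the 12 fits that each left out 1 mouse). Oas1a was also lost without WT 2 or Pparg-/-epi 8, and Rtp4 without Pparg-/-epi 8. Oas3, Mx1 and Irf7 were called in all 12 such fits. Isg20 was called in 4 of the 12, with adjusted p from 0.0169 to 0.0983.

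Upstream of these genes, none of the 13 interferon genes looked for (Ifnb1, Ifna1, Ifna2, Ifna4, Ifna5, Ifna11, Ifna12, Ifnk, Ifne, Ifng, Ifnl2, Ifnl3 and Ifnz) was among the genes of the table, which holds genes with more than 0.5 CPM in at least 6 mice. Among 6 interferon receptor genes Ifngr2, a chain of the interferon gamma receptor, differed by 0.34 ± 0.09 on the log2 scale (adjusted p = 0.0197), which is under the fold threshold. Of the 17 genes of pathways that induce interferon 1 was higher, Aim2, a sensor of cytosolic DNA, from 8.84 ± 1.84 to 32.6 ± 5.69 CPM (log2 fold change 1.88), and its groups did not overlap. Aim2 was higher in Pparg-/-epi 10, 11 and 12 than in Pparg-/-epi 9, so this gene did not share the lead of that library.

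Among 14 measured genes for interferon gamma induced chemokines and antigen presentation, 2 were higher and none lower. Cxcl9 rose from 8.03 ± 4.97 to 36.0 ± 35.8 CPM (SD, n = 6 in each group, log2 fold change 2.18, adjusted p = 0.0173) and Cxcl10 from 3.40 ± 2.33 to 14.2 ± 9.37 CPM (log2 fold change 2.07, adjusted p = 0.0186). Both chemokines attract T cells through CXCR3. Pparg-/-epi 9 had the highest level of both, at 108 and 32.3 CPM, and without it Cxcl9 was still called (log2 fold change 1.42, adjusted p = 0.0288) while Cxcl10, at a log2 fold change of 1.64, just missed the adjusted p threshold. The genes of antigen presentation were closer to 0, with log2 fold changes of 0.02 for B2m, -0.01 for H2-K1, -0.05 for Tap1, 0.24 for Tap2 and -0.24 for Ciita, the last 2 being the ends of the range over 11 such genes. Pparg-/-epi 9 was the highest mouse in 4 of the 11 (Psmb8, Psmb10, Tap2 and Tapbp), and WT 3 in B2m, H2-K1, H2-D1, Tap1 and Psmb9. Of the marker lists, T cells had 1 of 6 genes called lower (Cd3e) and neutrophils 1 of 2 higher (Cxcr2). The Langerhans and dendritic cell list had 1 of 9 higher (Mfge8), with a median log2 fold change of -0.03. NK cells had 1 of 5 higher (Gzmb, 0.548 CPM on average in WT mice), which was not called without Pparg-/-epi 9. The other NK markers had log2 fold changes below 0 (Nkg7 -0.36, Klrb1c -1.27, Klrd1 -0.39 and Prf1 -0.82). Of the keratinocyte markers Krt14, the gene whose promoter drives Cre, was higher, from 2565 ± 774 to 5064 ± 516 CPM (SD, n = 6 in each group, log2 fold change 0.98, adjusted p = 0.00559), with no overlap of the groups, and it was also called without Pparg-/-epi 9. Markers of endothelium summed to 9.38 to 135 CPM in WT and 34.8 to 207 CPM in Pparg-/-epi mice, and those of neutrophils to 0.944 to 4.92 CPM and 9.71 to 16.96 CPM, with Ly6g, Mmp8 and Retnlg not among the genes of the table. In Pparg-/-epi 9 these sums were 168 and 11.2 CPM. Of the plasmacytoid dendritic cell list only Ccr9 and Ly6d were among the genes of the table, with log2 fold changes of -0.20 and 0.20. Ly6d averaged 997 CPM in WT mice, beside 67.3 CPM for the leukocyte marker Ptprc. Whether these 2 genes stand for that cell type in the scrapes was not tested. The part of these cells in the levels above was not tested.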

How the data were processed

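RNA of 12 epidermal scrapings, 6 WT and 6 Pparg-/-epi, was sequenced as paired 75-base reads. Per the labels and the study's methods, the authors aligned reads to mm10 with STAR 2.5.2b, left out reads of low quality or with several map positions, and assigned the rest to refGene genes with featureCounts (Subread 1.5.1). The deposited values are raw counts, already limited by the authors to genes over 0.5 CPM in at least 6 libraries, and 2800 blank rows were dropped. The columns of replicates 11 and 12 were matched to mice through the study's sequencing list.

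Counts were compared with edgeR 4.0.16 (R 4.3.3, TMM, quasi-likelihood test, genotype as the only term, Benjamini-Hochberg over 14533 genes), in place of the likelihood ratio test of the study's methods, which was an alternative with DESeq2 1.42.0, other scalings, covariates, subsets and each mouse left out. The procedure was checked on simulated counts. Log2 CPM used a prior count of 2, and RPKM the deposited gene length. Figures used matplotlib 3.10.9 (Python 3.11.15).

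Members, gene lists and tests were chosen with earlier results of these data known. Every member in the table is named, and values are given for called members and the member with the highest RPKM of each role. Replicates are separate mice. Count-based limits cover counting error only.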

Additional observations from a re-analysis of the deposited data

Results flagged for a closer look

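The highest or lowest mouse of a group was set against its nearest neighbor on the log2 scale for the 46 genes in both groups, 92 sets of 6 mice, and a mouse was marked where the share of its group's range taken by the gap passed Dixon's 95% critical value. Of the 92 sets 8 were marked, where chance alone marks about 1 in 20, and the genes vary together. All 8 were the highest of their group. Pparg-/-epi 9 was marked for Dhx58 (13.4 CPM, next 4.84 CPM), Parp9 (100 CPM, next 45.2 CPM) and Ifi44 (15.9 CPM, next 3.46 CPM). WT 3 was marked for Oas1a (5.75 CPM, next 2.08 CPM), Oas2 (16.8 CPM, next 10.7 CPM), Mx2 (3.09 CPM, next 1.38 CPM) and Ifi35 (24.0 CPM, next 19.3 CPM). WT 2 was marked for Irgm2 (25.8 CPM, next 16.5 CPM).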

How the results depend on the processing

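Of the 46 genes 8 were higher and 1 lower. The RLE and total-count scalings and a minimum mean of 10 counts gave the same counts. With the likelihood ratio test 11 were higher and 2 lower (1 GTPase among the higher), and DESeq2 14 and 2 (3 GTPases). With sex as a covariate, or lower and higher mouse-name numbers as a block, 4 were higher and 0 lower, with RIN 7 and 0, and with age 6 and 1. Female mice alone gave 2 and 0. Over all genes the calls also moved, from 754 higher and 739 lower in the main fit to 294 and 357 in female mice alone. They were 882 and 830 with the likelihood ratio test and 942 and 845 with DESeq2. With sex they were 720 and 737, with the block 738 and 616, with RIN 765 and 646, and with age 753 and 699. Without both WT 2 and Pparg-/-epi 9, 5 were higher (4 type I targets and 1 GTPase) and 2 lower. Over all genes that fit called 1007 higher and 761 lower. Leaving out 1 mouse at a time gave 3 to 16 higher and 0 to 2 lower, with 3 to 12 type I targets and 0 to 4 GTPases among the higher genes. Over all genes these fits called 512 to 1303 higher and 570 to 946 lower. The median log2 fold change lay between 0.36 and 0.95 over all these settings. In the 7 female mice alone Oas3 and Irf7 were lost at larger log2 fold changes (2.92 and 1.74, adjusted p = 0.0717 and 0.0818), Trim25 was lost without Pparg-/-epi 9, and Mx1 was called under each setting. No paired analysis was possible because the titles number the mice without repeats over both groups, litters are not given, and WT 2 and Pparg-/-epi 10 are the only mice of different groups that share a number in their names.

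The sign of the log2 fold change turned, in genes that were not called, for Ifit3b with the mouse-number block (-0.036) and for Herc6 without WT 5 (-0.02). Over the fits that left out 1 mouse, the lowest values were without Pparg-/-epi 9, and the ranges were -0.14 to 0.24 for Ifih1, -0.052 to 0.27 for Eif2ak2, -0.26 to 0.80 for Oas2, -0.16 to 0.23 for Herc6, -0.084 to 0.38 for Parp9 and -0.012 to 0.19 for Ifi35. Without both WT 2 and Pparg-/-epi 9 they were -0.12 for Ifih1, -0.076 for Eif2ak2, -0.27 for Oas2, -0.12 for Herc6, -0.12 for Parp9, -0.037 for Ifi35 and -0.067 for Irf9. Beyond the samples each setting leaves out, the cause was not tested. Depth limits the lowest genes most, as Ifit3b had 3 to 41 counts and Ifi44 4 to 263.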
